A study of Homo sapiens with 4 samples.

Results

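The genes described here are 8 transcription factors of the adrenergic state of neuroblastoma, namely PHOX2A, HAND2, GATA2, GATA3, ISL1, TBX2, TFAP2B and MEIS2. They were chosen by name, and a gene belonged to the set where its Ensembl identifier carried one of these symbols. All 8 were found among the 25693 human genes of the table. RNA was counted on the ddSeq droplet device in NGP, an established human neuroblastoma line with amplified MYCN. All cells had been held without serum to synchronise the cell cycle. They then received Nutlin-3, a compound that keeps MDM2 from binding p53, or ethanol as solvent, for 24 h. Each treatment had 2 libraries, 1 with ERCC spike-in RNAs diluted 1000-fold and 1 with a 10000-fold dilution. The 500 columns of the table are named by bases and by the word treated or untreated, 250 of each, and no name gives the library. Each treatment was therefore 1 pool without replicates, no test between treatments was possible, and every interval below covers counting error only. Columns with the word treated were read as Nutlin-3. Where a pair of counts is joined by against, Nutlin-3 comes first and ethanol second.

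Neuroblastoma arises from the sympathoadrenal lineage of the neural crest. In its adrenergic state a set of transcription factors binds its own regulatory elements and those of its partners, an arrangement called a core regulatory circuit, and drives genes of noradrenaline synthesis and storage. PHOX2A, ISL1 and MEIS2 are homeodomain proteins, HAND2 is a basic helix-loop-helix protein that binds the E-box, GATA2 and GATA3 are zinc finger proteins that bind the GATA motif, TBX2 is a T-box protein known as a repressor, and TFAP2B belongs to the AP-2 family.

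Promoter sequence is shown for 3 of the members whose windows hold motifs of the set's own families. RefSeq windows on GRCh38.p14 were found for 7 of the 8 members, 14 windows in all, and the 250 bases before each start site were searched on both strands. The motifs were AGATAA for GATA factors, TAATTA for homeodomain proteins, CANNTG (the E-box) and GCCNNNGGC for AP-2. In the sequences, capitals mark any of these motifs. HAND2 is shown because it was the most abundant member by counts and shares its upstream region with an antisense RNA. GATA2 is shown for the window of its inner start site, which holds E-boxes and AP-2 motifs. ISL1 is shown only for 30 bases around its GATA motif. These bases lie before the RefSeq start site at 51383448. In the GENCODE annotation the ISL1 gene begins at 51383391, so by that annotation they fall inside the gene. The ISL1 window also overlaps annotated untranslated sequence of ISL1.
HAND2, chr4:173530230-173530479, minus strand: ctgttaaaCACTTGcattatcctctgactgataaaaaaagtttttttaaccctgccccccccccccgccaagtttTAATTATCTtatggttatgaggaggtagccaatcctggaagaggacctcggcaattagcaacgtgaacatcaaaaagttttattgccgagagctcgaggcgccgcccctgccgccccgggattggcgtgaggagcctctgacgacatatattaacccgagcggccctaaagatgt
GATA2, chr3:128488531-128488780, minus strand: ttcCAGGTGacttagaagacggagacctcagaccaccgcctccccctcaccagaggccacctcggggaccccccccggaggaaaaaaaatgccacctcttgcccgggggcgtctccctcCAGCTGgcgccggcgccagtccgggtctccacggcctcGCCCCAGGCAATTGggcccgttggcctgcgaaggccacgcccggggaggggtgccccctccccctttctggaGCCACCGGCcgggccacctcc
ISL1, chr5:51383405-51383434, plus strand: agtttgagtaagAGATAAggaagagaggtg

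The HAND2 window held a homeodomain motif starting 175 bases before the start site and, overlapping it, a GATA motif on the opposite strand starting 172 bases before. The E-box of that window started 242 bases before. Of all 35116 promoter windows of this length, 4.35% held TAATTA, 9.17% held AGATAA and 0.982% held both. The GATA2 window had E-boxes starting 247, 131 and 85 bases before its start site and AP-2 motifs starting 93 and 21 bases before, the last E-box overlapping an AP-2 motif. Over all windows 61.8% held an E-box and 19.8% the AP-2 motif. AGATAA was found in 2 of the 14 member windows, those of HAND2 and ISL1, and TAATTA in 1, that of HAND2. E-boxes were found in 5 of the 14, of 4 members, and AP-2 motifs in 5, of GATA2 and GATA3. A match describes the letters and not a bound site.

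The ethanol pool held 1342134 human counts and the Nutlin-3 pool 1301232. Column totals formed 2 classes with a gap between them. In each treatment 113 columns had more than 4000 counts (large columns) and 137 had fewer (small columns), and the large ones held 1190571 of the human counts in ethanol and 1160372 in Nutlin-3. Of the 250 barcode names of a treatment, 219 also occurred in the other. ERCC species had 4007 against 2989 counts. The 8 adrenergic markers set for checking the line, 3 of them members, all had counts, with mean levels of 89.1 to 368 CPM (counts scaled to a common total of human counts). Of 21 markers of Schwann cells, fibroblasts, endothelium and immune cells, 10 were not in the table and the other 11 had at most 29.9 CPM. SOX10, PECAM1 and PTPRC, which define Schwann, endothelial and immune cells, had no row. The markers past a log2 fold of 0.3 were LYZ of immune cells, with 49 against 24 counts, and the fibroblast genes COL1A1, with 47 against 29, and LUM, with 13 against 34. All 5 fibroblast markers found summed to 109 against 113. The part of such cells in the results was not tested. The response to Nutlin-3 was visible in CDKN1A, the p21 gene, with 188 counts against 70, and in MDM2, the gene of the p53 inhibitor, with 504 against 315.

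All 8 factors were expressed in both pools, and the counting interval of the difference between treatments held 0 for each of them. Together they held 1717 against 1629 counts. Of their 8 log2 fold changes (Nutlin-3 over ethanol), 6 were above 0 and 2 below, between -0.10 for HAND2 and 0.35 for TBX2. Among the 8844 genes whose mean reached 50 CPM, 47.2% were above 0. Their median was 0.16, and that of the 8844 genes whose mean reached 50 CPM was -0.01. A fold of at least 0.3 on the log2 scale was reached by 1 member upward, TBX2, and by 0 downward. In the same direction 4.49% of the 8844 genes reached it, and 4.53% went as far down. Over all 14830 genes past the low count filter, these shares were 15.9% and 13.4%. The counting interval left out 0 for 0 of the 8 members and for 4.29% of the 8844 genes. Scaled to ERCC counts, all 8 members were lower in Nutlin-3, with a median of -0.31, where the median of all genes past the filter was -0.47. The libraries of each pool mixed in unknown proportion, so a different mixture of dilutions and a different amount of RNA per cell cannot be told apart.

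**Figure D1:**
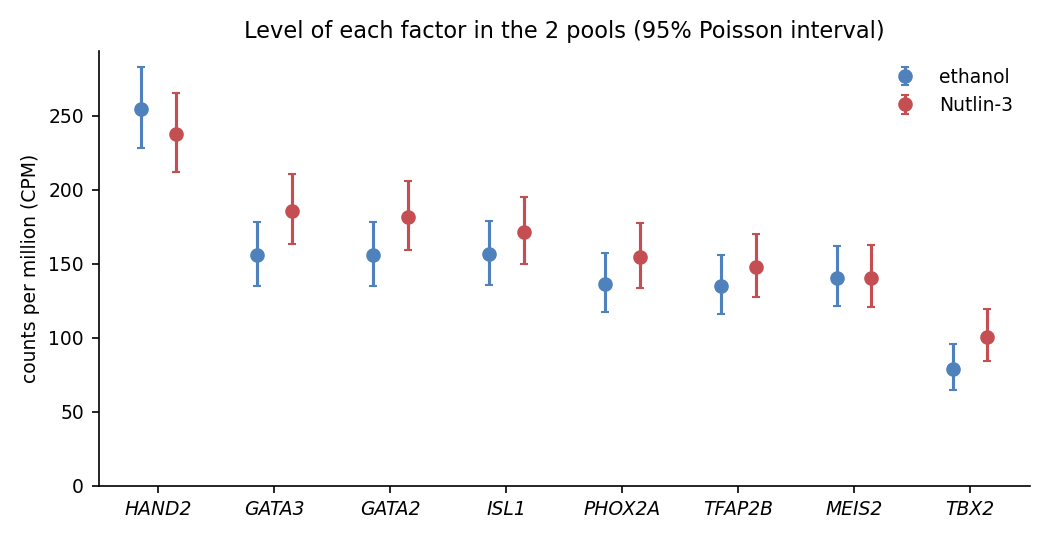
Level of each of the 8 factors in CPM on the vertical axis, blue points for the ethanol pool and red for the Nutlin-3 pool, with 95% Poisson intervals. HAND2 lies highest and TBX2 lowest, and the intervals of the 2 pools overlap for every factor.

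The homeodomain factors differed little. PHOX2A (ENSG00000165462, chromosome 11, 72239077 to 72245664, GENCODE 29 on GRCh38), which acts in noradrenergic neurons, had 201 counts (174 to 231, 95% Poisson) against 183 (157 to 212). Its log2 fold change was 0.18 (95% counting interval -0.11 to 0.48). ISL1 (ENSG00000016082, chromosome 5, 51383391 to 51394738), a LIM-homeodomain factor of sympathetic and motor neurons, had 223 counts (195 to 254) against 210 (183 to 240) and a log2 fold change of 0.13 (-0.15 to 0.41). MEIS2 (ENSG00000134138, chromosome 15, 36889204 to 37101299), a TALE homeodomain protein that pairs with PBX and HOX proteins, had 183 counts (157 to 212) against 189 (163 to 218). After scaling its 2 levels were nearly equal, 140.7 CPM in Nutlin-3 and 140.8 CPM in ethanol. The Nutlin-3 and ethanol intervals overlapped for all 3.

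HAND2 (ENSG00000164107, chromosome 4, 173524969 to 173530229) had 309 counts (276 to 345) against 342 (307 to 380). It was the only member other than MEIS2 with more counts in ethanol, and its log2 fold change was -0.10 (-0.33 to 0.13). HAND2-AS1 is a long noncoding RNA on the opposite strand. Its RefSeq start site of highest coordinate lies 229 bases upstream of HAND2, in the region printed above. In GENCODE 29 the annotated HAND2-AS1 gene begins inside HAND2. Its counts were 294 against 285, with a log2 fold change of 0.09. The annotated exons of HAND2 and HAND2-AS1 share 867 bases. Whether counting used the strand is not given in the sources used here, so reads of HAND2 and its antisense partner may not be told apart. PHOX2A shares 29 exon bases with INPPL1, TBX2 28 with AC005746.2 and MEIS2 431 with AC078909.1, all on the opposite strand. Those partners had 28 against 37, 2 against 1 and 4 against 3 counts.

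GATA2 (ENSG00000179348, chromosome 3, 128479427 to 128493185) and GATA3 (ENSG00000107485, chromosome 10, 8045378 to 8075203) had equal counts in ethanol, 209 each (182 to 239). In Nutlin-3 GATA2 had 236 counts (207 to 268) and GATA3 242 (212 to 274). The log2 fold changes were 0.22 (-0.05 to 0.50) for GATA2 and 0.26 (-0.02 to 0.53) for GATA3. Both lay toward the upper end of all genes, since 8.14% of the 8844 genes had a higher fold than GATA2 and 6.09% than GATA3. GATA2-AS1 and GATA3-AS1, which run on the opposite strands and share 0 annotated exon bases with their partners, had log2 fold changes of -0.02 and 0.03.

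TBX2 (ENSG00000121068, chromosome 17, 61399896 to 61409466), which represses cell cycle inhibitor genes in other tissues, had the fewest counts and the highest fold of the set. Its counts were 131 (110 to 155) against 106 (86.8 to 128), a log2 fold change of 0.35 (-0.03 to 0.73). The intervals overlapped, and 3.01% of the 8844 genes had a higher fold. TBX2-AS1, an antisense gene that spans TBX2 and shares 0 annotated exon bases with it, had 139 counts against 128. The log2 fold change of TBX2-AS1 was 0.16. TFAP2B (ENSG00000008196, chromosome 6, 50818723 to 50847613) had 192 counts (166 to 221) against 181 (156 to 209) and a log2 fold change of 0.13 (-0.17 to 0.43).

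**Figure D2:**
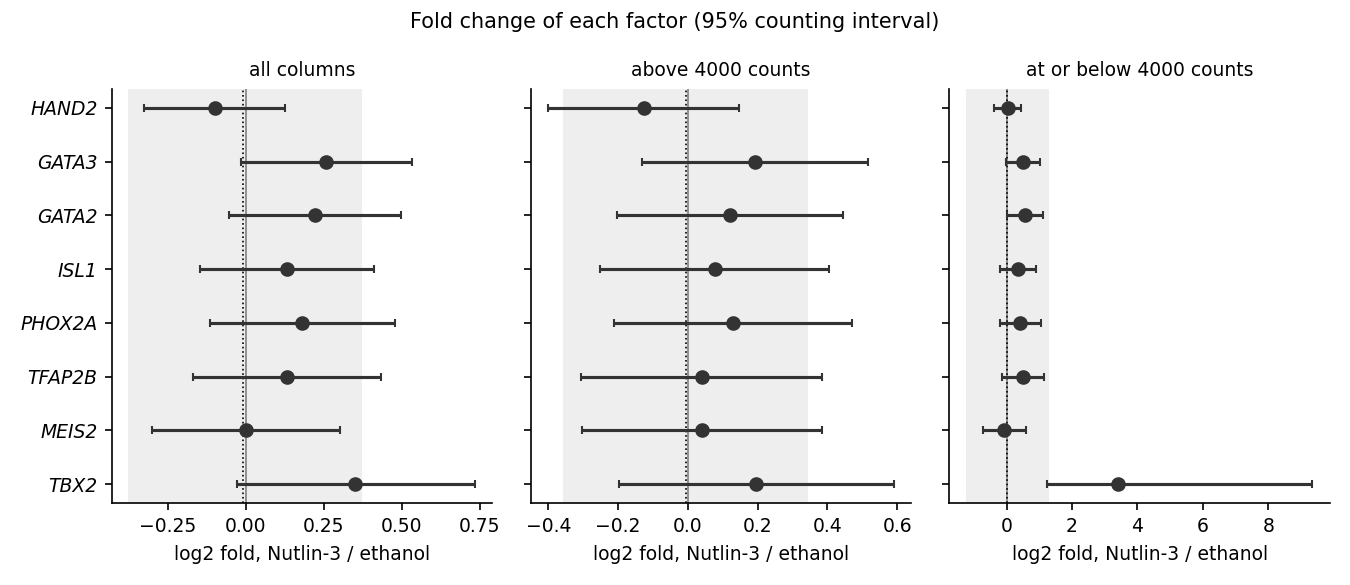
Log2 fold of each factor, Nutlin-3 divided by ethanol, on the horizontal axis (scales differ between panels), with 95% counting intervals, from all columns, from columns above 4000 counts and from the others. The grey band holds the central 95% of the genes set beside the members in each panel, and the dotted line is their median. Only the small columns give an interval above 0, for GATA2 and TBX2. The share of all genes with such an interval there is not given here. TBX2 has 14 against 1 counts in them and passed the filter only through Nutlin-3.

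By CPM the order of the set was HAND2, GATA3, GATA2, ISL1, PHOX2A, TFAP2B, MEIS2 and TBX2, from means of 246 to 89.8 CPM. Intervals of HAND2 lay above those of all other members in both pools, and TBX2 lay below all others. Among the 6 members between them, the intervals of neighbours in the order overlapped in both pools, while GATA3 lay just above MEIS2 in Nutlin-3 (lower bound 163.4 CPM, upper bound 162.6). The kit reads 3' ends, so counts need not grow with exon length, and dividing by it can place long genes too low. CPM does not give molecules exactly either. Exon lengths ran from 1.784 kb for PHOX2A to 10.798 kb for MEIS2. Divided by exon length the order changed, with PHOX2A first at 81.5 CPM per kb, then HAND2 at 68.4, ISL1 at 56.9, GATA3 at 49.7, GATA2 at 37.8, TFAP2B at 23.0, TBX2 at 14.9 and MEIS2 at 13.0. Among the 14830 genes past the filter HAND2 had rank 136 by CPM and TBX2 rank 4160.

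The counts per column limit what these sums can show. In the 113 large columns of ethanol, GATA2 had 0 counts in 0 columns, 1 count in 80, 2 in 26 and 3 or more in 7. The same split for GATA2 in Nutlin-3 was 0, 77, 26 and 10 columns. Over all 8 members, 892 values in the large ethanol columns were above 0, and 638 of these were exactly 1. All 8 members were seen together in 101 of 113 large columns in ethanol and in 106 of 113 in Nutlin-3. A gene counted once in every large column and nowhere else would have 84.2 CPM in ethanol and 86.9 in Nutlin-3. Among the 8844 genes, the sum over large columns lay within 10% of 113 for 40.7% in ethanol and 39.4% in Nutlin-3. Where a gene has at least 1 count in every column its sum cannot fall below the number of columns. Whether this bears on the ratios of the members was not tested. MDM2, also seen in all 113 large columns of both treatments but with more counts in each, had 377 against 227 there. CDKN1A was seen in all 113 in Nutlin-3 but had 0 counts in 47 of 113 in ethanol, and its sums were 143 against 67. TBX2 had 0 counts in 6 large columns against 12.

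The ratio of variance to mean over the large columns was 0.148 to 0.715 for the 8 members in ethanol and 0.154 to 0.591 in Nutlin-3. A Poisson count has a ratio of 1, so the counting intervals above do not describe this spread, and columns are not called cells here.

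**Figure D3:**
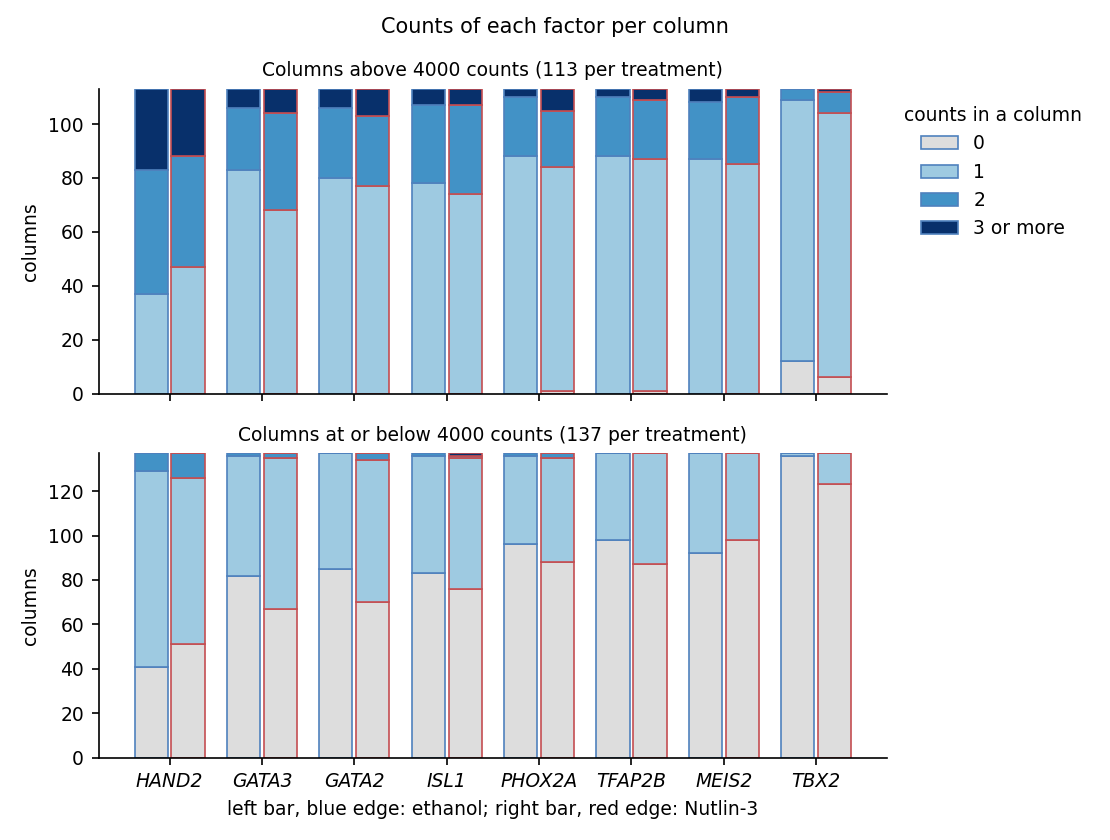
Number of columns (vertical axis) in which each factor had 0, 1, 2 or 3 or more counts, for large columns above and small columns below, with ethanol on the left and Nutlin-3 on the right of each pair. In the large columns 1 count is the most frequent value for every factor except HAND2 in ethanol, which most often had 2.

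The numbers of columns with 2 or more counts were compared as well. In the large columns GATA3 had 2 or more counts in 45 of 113 in Nutlin-3 (39.8%, exact binomial interval 30.7 to 49.5) and in 30 of 113 in ethanol (26.5%, 18.7 to 35.7). HAND2 had 66 such columns (58.4%, 48.8 to 67.6) against 76 (67.3%, 57.8 to 75.8). For both genes the intervals overlapped. TBX2 had 9 against 4, PHOX2A 29 against 25, GATA2 36 against 33, ISL1 39 against 35, MEIS2 28 against 26 and TFAP2B 26 against 25. Thus 7 of 8 members had more such columns in Nutlin-3, by small numbers. The share of all genes with more such columns in Nutlin-3 is not given here, so this count cannot be read as a trait of the set. Counts beyond the first in each column were also added up, a choice made after seeing the data, and scaled by their own totals of 115957 against 127579. GATA3 then had 59 against 41, a log2 fold change of 0.75 (0.15 to 1.37). Scaled by all counts as elsewhere, GATA3 had 0.57 (-0.03 to 1.18), so that its interval held 0. By their own totals PHOX2A had 40 against 29 (0.69, -0.03 to 1.43) and HAND2 110 against 133 (-0.04, -0.42 to 0.33). The median of the 8 was 0.49, and that of the 2846 genes past the filter there was -0.0023. The interval lay above 0 for 1 member, GATA3, and for 7.91% of those genes. A fold of 0.3 upward was reached by 5 members, beside 33.7% of the genes, and downward by 0, beside 31.5%. Of these 5 members TBX2, with 10 against 4 counts, did not pass that filter, though the median of the 8 includes it. With the scaling of all counts the median of the members was 0.31 and that of the genes -0.19. The interval then lay above 0 for 0 members, beside 4.46% of genes. In that scaling 4 members were higher by 0.3, beside 23.8%, and 0 lower, beside 42.4%. TBX2 is again among these 4 and in the median of the members.

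Levels differed more between the classes of columns than between treatments. In the large columns the 8 members lay between 88.1 and 199.7 CPM in ethanol and between 101 and 183 CPM in Nutlin-3. In the small columns 7 of the 8 were higher, HAND2 reaching 679 CPM in ethanol and 696 in Nutlin-3. TBX2 was the exception, at 6.53 CPM in the small ethanol columns from 1 count and at 100.5 CPM in Nutlin-3 from 14. Genes outside the set could be higher there too. In Nutlin-3, large then small, MYCN had 597 and 1328 CPM, MDM2 325 and 912, and CDKN1A 123 and 323. In ethanol MYCN had 779 and 1383, MDM2 190 and 574, and CDKN1A, the other way, 56.2 and 19.6. The share of all genes higher in small columns is not given here, so this is not called a trait of the set. The range over members in Nutlin-3 was 1.81-fold in the large and 6.93-fold in the small columns.

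**Figure D4:**
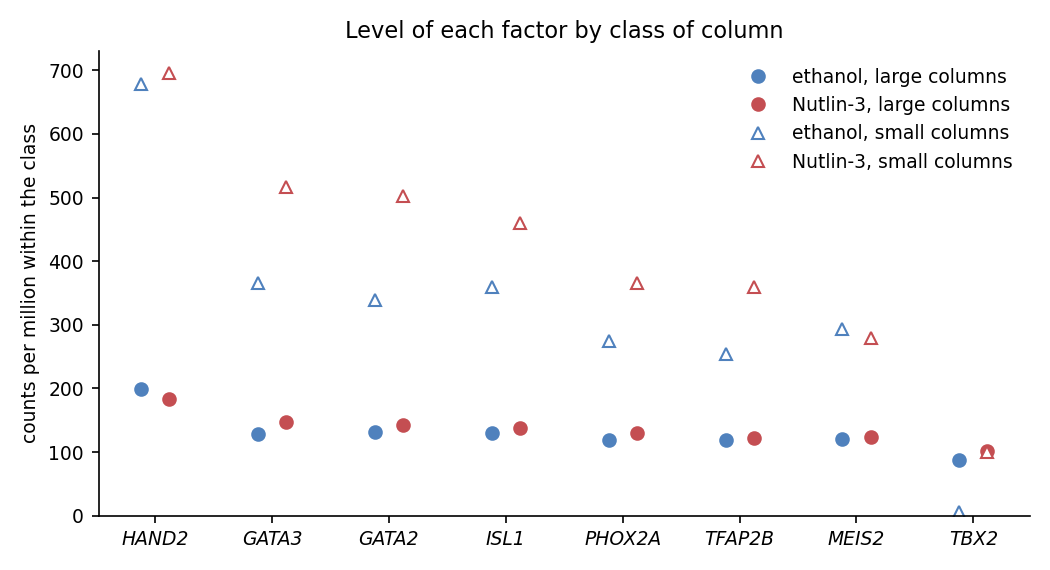
Level of each factor in CPM within its class of columns (vertical axis), filled circles for large columns and open triangles for small ones, blue for ethanol and red for Nutlin-3. Triangles lie above circles for every factor but TBX2, and spread more widely from gene to gene.

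In the small columns alone 6 of 8 members had more counts in Nutlin-3. After scaling 7 had a fold above 0, beside 52.0% of the 4762 genes tested there. GATA2 had 70 counts against 52, a log2 fold change of 0.56 (0.03 to 1.11), and GATA3 had 72 against 56 (0.50, -0.02 to 1.03). TFAP2B had 50 against 39 (0.49, -0.14 to 1.14), PHOX2A 51 against 42 (0.41, -0.20 to 1.04) and ISL1 64 against 55 (0.35, -0.19 to 0.90). HAND2 had 97 against 104 (0.04, -0.38 to 0.45) and MEIS2 39 against 45 (-0.07, -0.73 to 0.58). TBX2 had 14 counts against 1, a log2 fold change of 3.41 (1.23 to 9.35) that rests on a single ethanol count. A fold of 0.3 or more upward was thus met by 6 of 8 members, beside 29.1% of the 4762 genes tested there, and downward by 0, beside 27.6%. TBX2, among these 6 and among the 7 above 0, passed the filter there only through its Nutlin-3 counts, so its place in both counts is not support. The median of the 8, which includes TBX2 and carries the same limit, was 0.45, and that of the 4762 genes was 0.03. In the large columns 0 members reached 0.3 in either direction, beside 3.51% of 8844 genes upward and 3.64% downward. The difference between the classes was not tested.

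At a common depth of 700 counts, with shallower columns left out (63 in Nutlin-3, 56 in ethanol), HAND2 was seen in 46 of 187 Nutlin-3 columns (24.6%, 18.6 to 31.4) and 49 of 194 ethanol columns (25.3%, 19.3 to 32). GATA3 was seen in 19.8% (14.3 to 26.2) and 17.5% (12.5 to 23.6), and TFAP2B in 20.3% (14.8 to 26.8) and 12.9% (8.52 to 18.4). TBX2 had the lowest shares, 9.09% (5.39 to 14.2) and 4.12% (1.8 to 7.96). Over all columns the intervals of the treatments overlapped for all 8 members. Without thinning HAND2 was seen in 79.6% and 83.6% of 250 columns and TBX2 in 48.4% and 40.8%. Median depths before thinning were 2287 human counts per ethanol column and 2010.5 per Nutlin-3 column. A single line holds no other cells in which the background from free RNA could be read. In the small columns alone the thinned intervals of TFAP2B did not overlap, with 29 of 74 columns (39.2%, 28.0 to 51.2) against 14 of 81 (17.3%, 9.78 to 27.3). Without thinning they did, at 36.5% (28.4 to 45.1) against 28.5% (21.1 to 36.8). In the large columns the thinned share of TFAP2B was 7.96% against 9.73%, the other way round.

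Counts of the members were compared from column to column. Counts in large columns were set against the value expected from gene and column totals, and the residuals of the 28 pairs of members correlated between -0.08 and 0.26 in ethanol and between -0.21 and 0.49 in Nutlin-3. The highest of these, 0.49 for GATA2 with HAND2 in Nutlin-3, stood beside -0.00065 for the same pair in ethanol. These columns share libraries and depth. Over 113 columns per treatment, the genes most like HAND2 were MT-ND4 (r = 0.69 in Nutlin-3 and 0.66 in ethanol), RPLP1 (0.72 and 0.66) and MT-CO1 (0.71 and 0.64), mitochondrial and ribosomal genes of high count. TBX2 was most like RPL13 (0.34 and 0.35), MT-CO2 (0.33 and 0.34) and RPS14 (0.32 and 0.31). For GATA3 these were PRR11 (0.35 and 0.34), SLC25A6 (0.33 and 0.37) and RGS5 (0.33 and 0.39), and for GATA2 ATP5MC2 (0.31 and 0.36) and MRPL45 (0.30 and 0.38). MEIS2 was most like PPM1A (0.36 and 0.35), CDK2AP1 (0.36 and 0.32) and PPIG (0.31 and 0.33). No gene reached 0.3 in both treatments for PHOX2A, ISL1 or TFAP2B.

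Paralogues of the members showed which families had 1 expressed gene and which had several. The table held 12 of 18 paralogues, and the filter kept 8. Examples chosen after their values were seen are HAND1, with 171 against 169 counts, TBX3, with 177 against 151, and MEIS1, with 162 against 175. HAND1 and TBX3 are also in the list of other adrenergic factors. In the AP-2 family TFAP2A had 1 and 0 counts and TFAP2E 2 and 4, and TFAP2C and TFAP2D had no row, so that TFAP2B held nearly all AP-2 counts. GATA1 and GATA5 had no row. GATA4 (71 against 55 counts, log2 fold change 0.41, -0.11 to 0.95) and MEIS3 (105 against 86, 0.33, -0.09 to 0.76) were the 2 of 8 paralogues higher by 0.3, beside 15.9% of all genes past the filter, and 0 were lower, beside 13.4%.

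Genes that act with the set were followed in lists. Of 20 other adrenergic factors 19 passed the filter, 0 were higher by 0.3 and 2 lower, beside 15.9% and 13.4% of all genes, and their median was near 0 (-0.0011). The 2 were MYCN, with 877 against 1140 counts (-0.33, -0.46 to -0.20), and EYA1, a coactivator, with 50 against 67 (-0.37, -0.93 to 0.17). Of 20 partner proteins 18 passed, with 3 higher, 2 lower and a median of 0.01. The 3 were ZFPM1, the cofactor FOG1 of GATA proteins, with 61 against 29 counts (1.11, 0.46 to 1.81), LMO2 with 10 against 7, and KCTD1, an AP-2 inhibitor, with 96 against 78 (0.34, -0.10 to 0.80). LMO2 passed the filter only through its Nutlin-3 counts. ZFPM2, a further FOG cofactor, had 37 against 50 (-0.38, -1.04 to 0.25), and PKNOX1, a TALE homeodomain protein, 89 against 114 (-0.31, -0.73 to 0.10). The interval of ZFPM1 alone left out 0 in this list. The 4 antisense or divergent RNAs found had a median of 0.06, with 0 past 0.3.

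Effector genes of the adrenergic state included 5 of 9 higher by 0.3 and 0 lower, with a median of 0.32, beside 15.9% and 13.4% of all genes past the filter. Among those with a mean of 50 CPM or more, 4 of 7 were higher, beside 4.49%. CHGA, a granule protein, had 559 against 411 counts (0.49, 0.30 to 0.68), and SLC6A2, the noradrenaline transporter, 83 against 55 (0.64, 0.13 to 1.16). DBH, which makes noradrenaline, had 131 against 104 (0.38, -0.0034 to 0.76), CHGB 186 against 154 (0.32, 0.0025 to 0.64), and SLC18A1, a vesicular monoamine transporter, 18 against 3 (2.45, 0.85 to 5.04). SLC18A1 passed the filter only through its Nutlin-3 counts, so its place among the 5 and in the median is not support. TH, the first enzyme of the pathway and chosen after its value was seen, had 169 against 176 counts (-0.01, -0.33 to 0.30). Of 20 mesenchymal state factors 16 were in the table and 10 passed, with 2 higher, 4 lower and a median of -0.01, beside the same 15.9% and 13.4%. TWIST1 was the most abundant of these with 230 against 210 counts, followed by FOSL2 with 131 against 118, ZEB2 with 104 against 112 and SNAI2 with 54 against 73 (-0.39, -0.92 to 0.14). The 2 higher genes, named after their values were seen, were FOXC1 with 50 against 11 counts (2.18, 1.27 to 3.32) and FOSL1 with 14 against 1 (3.32, 1.14 to 9.26). FOSL1 also passed the filter only through its Nutlin-3 counts. The lower genes were SNAI2 and, likewise named after their values were seen, TBX18, NOTCH2 and MAFF. TBX18 had 11 against 19 counts (-0.72, -1.96 to 0.40), NOTCH2 13 against 20 (-0.56, -1.70 to 0.50) and MAFF 32 against 43 (-0.37, -1.09 to 0.31).

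**Figure D5:**
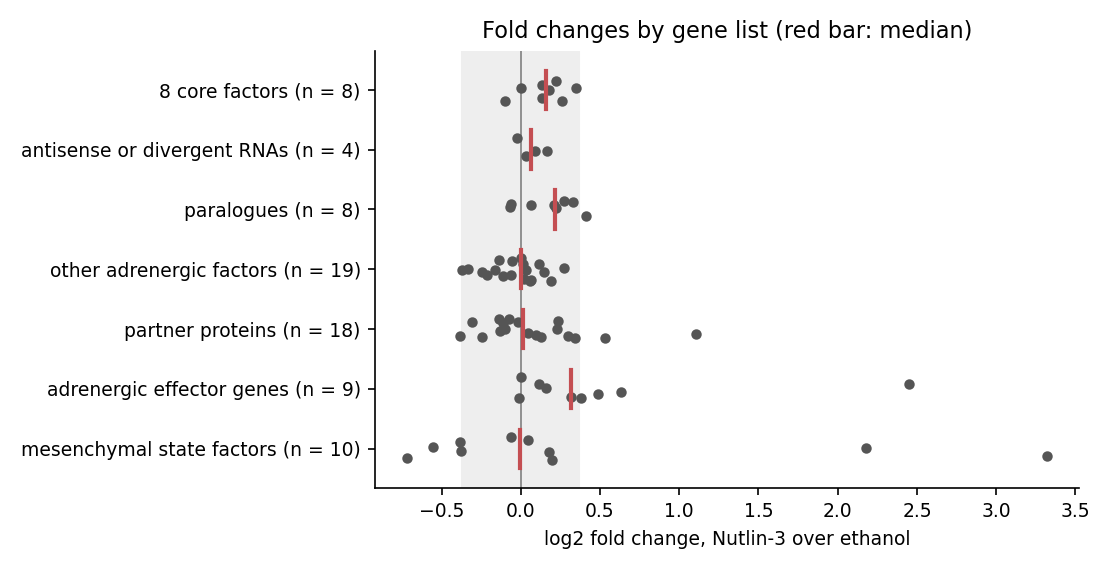
Log2 fold, Nutlin-3 divided by ethanol (horizontal axis), for each gene past the filter, by gene list, with a red bar at each median and a grey band for the central 95% of the 8844 genes. The 8 core factors all lie within the band, and their median is 0.16.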

How the data were processed

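Single-cell libraries of NGP cells were made from polyadenylated RNA with the SureCell WTA 3' kit on the ddSeq device, per the labels' protocols. The authors deposited whole-number counts per gene and column, not scaled. Aligner, molecular tag reading, genome build and cell filter: not given in the sources used here. No doublet caller was run, since all columns come from one line and were summed. Columns were assigned to treatments by the word in their names, and the planned tests over 4 libraries could not be run because no name gives the library.

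Per treatment, the sum of its 250 columns without ERCC species was taken, scaled with TMM factors of edgeR 4.0.16 in R 4.3.3, and filtered with edgeR (minimum 10). Log2 fold changes used 0.5 added counts and exact binomial 95% intervals, and the fold and interval calculation was tested on simulated data. Gene names came from GENCODE 29 on GRCh38, matched for 25602 genes. Promoter windows came from RefSeq. Thinning and all other steps used Python 3.11.15 and numpy 2.4.6.

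The members, lists and alternatives were chosen with earlier results of these data known. All 8 members were named whatever their values. From other lists the genes past 0.3 were named where at most 5 passed, otherwise the 4 highest by CPM and the 4 largest folds, at a mean CPM of 50 or more. The likeness rule named up to 3 genes with r of at least 0.3 in both treatments. The planned protein comparison of GATA2 and GATA3 was not run.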

Additional observations from a re-analysis of the deposited data

How the results depend on the processing

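No paired analysis was possible because column names do not tell the libraries of a treatment apart. Tests with edgeR or DESeq2, the ERCC dilution block and omission of single libraries therefore could not be run. Of 104 member values under 13 alternatives, 76 stayed within the first counting interval and the others left it. The sign changed for 15, of which 6 were with ERCC scaling and 3 in columns with names in 1 treatment. For TBX2, the member past 0.3, it changed in 2, at -0.12 with ERCC counts as library size and at -0.15 in the columns whose names occur in 1 treatment. The cause was not tested, except that ERCC scaling subtracts a constant from every gene.

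The median of the 8 members, 0.16, became -0.31 with ERCC scaling, 0.45 in small columns, -0.11 in columns with names in 1 treatment, 0.49 with counts beyond the first in each column, 0.42 with those of large columns and 0.31 with counts beyond the first scaled by all counts. The number of members higher by 0.3, 1 at first, became 0 with ERCC scaling, 0 in large columns, 6 in small columns, 3 with names in 1 treatment, 0 with each gene counted once per column, 5 with counts beyond the first in all or in large columns, 4 with those scaled by all counts, 0 at a threshold of 0.5 and 0 where the counting interval had to leave out 0. The number lower, 0 at first, became 4 with ERCC scaling and 2 with names in 1 treatment. With ERCC scaling the median of all genes past the filter was -0.47, so these 4 are not read as a decrease of the set. Columns with names in 1 treatment summed to only 23060 against 19805, and 394 genes passed the filter there. For 5 settings no share of all genes is given: ERCC scaling, names in 1 treatment, once per column, large columns beyond the first, and 0.5. Member counts in them cannot be read as a trait of the set. The share of all genes called upward was 15.9% with the filter, 27.1% without it and 4.49% at 50 CPM, and downward 13.4%, 25.4% and 4.53%. Scaling by DESeq2 1.42.0, no TMM factor, a pseudocount of 1 and leaving out the 10 largest columns kept all 8 members within their intervals. The 3 settings with counts beyond the first were chosen after seeing the data. Medians and counts of members in these settings and in small columns include TBX2, with the limits given above.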
